A study of Mus musculus with 2 samples.

Results

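The replication-dependent histone genes are the multicopy genes that supply histone protein for newly copied DNA. They were taken by symbol, as every row of the gene table named H1f1 to H1f5, H2ac, H2bc, H3c or H4c followed by a number, and 64 rows of 55357 carried such a name. Of these, 58 had at least 1 UMI (unique molecular identifier, the tag that marks 1 captured transcript molecule) in the cells analysed and are the members described here, namely 5 H1, 15 H2A, 15 H2B, 11 H3 and 12 H4 genes. The 6 rows without a UMI were H2ac1, H2ac14, H2ac19, H2bc1, H2bc23 and H3c14. On GRCm38, 50 members lie on chromosome 13 between positions 21715763 and 23764406, and 8 lie on chromosome 3 between 96219865 and 96270132.

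Single cells of crypt-enriched small intestinal epithelium were measured in 1 library from Adipfl/fl mice, the floxed control, and 1 library from Adipfl/flpVilli-CreT mice, in which Cre under the villin promoter removes adiponectin (Adipoq) from epithelial cells. The mice were on a C57BL/6 background, no further treatment is stated for these libraries, and both genotypes carry the floxed allele. The figure legend of the study gives pooled male mice of 8 weeks with n = 6, so neither genotype had a replicate library and no test between the genotypes was possible. The villin promoter is not active in T cells, which were also captured and are not expected to carry the deletion. The comparison of the genotypes asks how loss of epithelial adiponectin bears on dividing cells of the crypt, and cycling T cells give the same genes in cells not expected to carry the deletion. The paper describes adiponectin as secreted by Paneth cells, so T cells may not be a reference free of its loss. Below, the 2 libraries are called control and knockout.

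Cells with more than 500 detected genes and under 25% mitochondrial UMIs were kept, 3069 of 9791 barcodes in the control and 5555 of 11838 in the knockout, with 25687687 and 48895126 UMIs and medians of 4838 and 4749 UMIs per cell. The mitochondrial limit removed 4670 of 7739 control and 4263 of 9818 knockout barcodes with over 500 genes, an unequal loss between the libraries. The study states limits of the same values but reports more retained cells in both libraries. The libraries shared 31 barcode sequences in all and 3 among the kept cells. Adipoq had 0 UMIs in the kept cells of both libraries and so could not check the labels. Members held 21451 UMIs in the control and 35145 in the knockout. Levels are given as counts per 1000000 UMIs (CPM), that is, a gene's UMIs over a whole class of cells divided by all UMIs of that class and multiplied by 1000000. They are not divided by gene length because each UMI counts 1 molecule at its 3′ end. The 95% intervals are exact (Poisson for levels, conditional binomial for folds) and cover counting error only, not the spread between mice or between cells. They treat UMIs as independent, although the members were spread unevenly over cells. A summed level cannot separate fewer cells that express a gene from less RNA per cell.

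Clusters were built without the members and named from marker genes. Cluster 10, with 11 of 12 cycling markers, 10 of 10 stem cell markers and Olfm4 as its leading gene, gave the cycling epithelial cells (86 in the control, 287 in the knockout). It also had 4 of 9 Paneth cell and 5 of 5 fibroblast markers at least 2-fold above the other cells. Cluster 13, with 12 of 12 cycling and 12 of 13 T cell markers, gave the cycling T cells (96 and 101). The resting epithelial cells numbered 2422 and 4653, and the resting T cells 374 and 452. "Resting" means only that a cluster lacked the cycling markers.

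In a dividing cell the histone genes of this group are switched on as DNA is copied in S phase, and their transcripts are destroyed when copying ends. Histones H2A, H2B, H3 and H4 form the core around which DNA is wrapped, and H1 binds the linker DNA between cores. Most messenger RNAs end in a poly(A) tail, whereas these transcripts normally end just after a short stem-loop that the protein Slbp binds. The droplet method primes on poly(A), so only molecules that carry a tail or an internal run of A are readily captured. In the intestine, stem and transit amplifying cells of the crypt divide, and the enterocytes, goblet, tuft and enteroendocrine cells they give rise to do not.

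The stem-loops are shown because they define this class of transcript, with the paired stem in capitals and the loop in lower case. In the GENCODE M21 transcripts, the pattern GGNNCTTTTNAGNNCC with a paired stem was found in 38 of 58 members in 6 forms.
Form in 22 members of H1, H2A, H2B and H3: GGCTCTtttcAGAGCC
Form in 6 members, H4c4 among them: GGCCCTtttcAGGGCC
Form in 5 members of H2B and H3, H3c3 among them: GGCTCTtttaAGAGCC
Form in 2 members, H4c9 among them: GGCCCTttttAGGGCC
Form in 2 members of H4: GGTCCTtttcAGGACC
Form in H2ac20: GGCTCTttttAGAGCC
Among all 64 rows of these names, 24 (37.5%) had the motif within the last 200 bases of a transcript, against 6 of 55386 other genes (0.0108%). The other members had no such stem-loop in their annotated transcript, which says only that the letters are not in that model.

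Transcripts of the 4 marker members are annotated with different ends. H1f5 (ENSMUSG00000058773, linker histone, chr13:21779883-21780625, minus strand, 1 exon) is a model of 743 bases without an annotated stem-loop. H4c4 (ENSMUSG00000061482, core histone H4, chr13:23581598-23582735, plus strand, 1 exon) continues 770 bases past its stem-loop. H2ac24 (ENSMUSG00000094777, core histone H2A, chr13:21833026-21833507, minus strand, 1 exon) ends 3 bases past it, and H2ac8 (ENSMUSG00000069272, H2A, chr13:23570517-23571220, minus strand, 1 exon) 151 bases past it. Many members are near copies of each other. Of the 91-base stretches in the last 500 bases, 92.4% of those of H2ac24 and 47.6% of those of H2ac8 also occur in another gene, and none of those of H1f5 or H4c4 do. Over all members, 26 of 58 shared more than 50% of their stretches and 14 shared less than 1%, so counts of the former depend on how reads that match several genes were treated. The study states reads longer than 91 bases, and longer stretches were not compared.

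Promoters of these 4 members are shown because genes of 1 histone family share motifs before their start. Each is 150 bases on GRCm38.p6 from the RefSeq promoter table, read 5′ to 3′ along the gene's strand, with the CCAAT box, the TATA box TATAAA, the H1 box AAACACA and the octamer ATTTGCAT in capitals on either strand. The RefSeq starts differ from those of GENCODE, and the H2ac24 window overlaps the start of the GENCODE model.
H1f5, chr13:21780626-21780775, minus strand: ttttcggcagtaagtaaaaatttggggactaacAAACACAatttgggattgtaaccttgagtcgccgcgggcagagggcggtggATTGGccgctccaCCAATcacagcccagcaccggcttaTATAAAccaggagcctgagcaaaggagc
H2ac24, chr13:21833476-21833625, minus strand: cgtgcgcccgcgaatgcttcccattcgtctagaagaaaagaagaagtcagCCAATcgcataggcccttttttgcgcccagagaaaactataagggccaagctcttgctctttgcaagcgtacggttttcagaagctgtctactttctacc
H2ac8, chr13:23571221-23571370, minus strand: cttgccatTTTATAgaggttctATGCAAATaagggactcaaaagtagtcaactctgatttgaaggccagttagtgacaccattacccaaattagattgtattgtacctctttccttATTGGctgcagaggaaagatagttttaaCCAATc
H4c4, chr13:23581418-23581567, plus strand: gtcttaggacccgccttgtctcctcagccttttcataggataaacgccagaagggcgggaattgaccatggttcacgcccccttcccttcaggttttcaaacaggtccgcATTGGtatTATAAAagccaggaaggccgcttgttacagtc
A promoter was found for 57 of the 64 rows, and both strands of the 250 bases before the start were searched. The ends of TATAAA and AAACACA can overlap. The octamer occurred in 6 of 17 H2A and 7 of 14 H2B promoters and in 0 of the H1, H3 and H4 promoters, against 526 of all 32851 promoters (1.60%). Windows of neighbouring H2A and H2B genes can overlap, so 1 site can count for both families. The windows of H2ac8 and H2bc8 hold the same octamer. CCAAT occurred in all 5 H1, all 17 H2A and all 14 H2B promoters, in 8 of 10 H3 and in 3 of 11 H4 promoters (all promoters 33.9%). AAACACA, found in 4 of 5 H1 promoters, was in 2 of 17 H2A and 2 of 14 H2B promoters and in no H3 or H4 promoter (all promoters 6.25%), and TATAAA was in 40% to 80% of each family (all promoters 12.4%). A match is a description of letters, not a binding site.

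Cycling T cells held the highest level of members. The members together reached 4636 CPM (4510 to 4765) in cycling T cells of the control and 4078 (3958 to 4201) in the knockout. The total in cycling epithelial cells was 686 (653 to 720) in the control and 772 (751 to 795) in the knockout. Resting epithelial cells held 689 and 636, and resting T cells held 349 and 347. The cycling to resting fold of the total was therefore 0.996 (0.945 to 1.05) in control epithelium and 1.21 (1.18 to 1.25) in knockout epithelium, but 13.3 (12.2 to 14.4) and 11.7 (10.9 to 12.7) in T cells. Cycling T cells exceeded cycling epithelial cells 6.76-fold in the control and 5.28-fold in the knockout. These folds compare shares of all UMIs, not member UMIs per cell, and the classes differ in UMIs per cell. Medians were 19430 and 16990 in cycling and 4599 and 4550 in resting epithelial cells, and 10570 and 9163 in cycling T cells. In the control, 86 cycling epithelial cells held 1638 member UMIs, 2422 resting ones 13671 and 96 cycling T cells 5142.

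The level in resting epithelium came mostly from 3 genes. H2bc4 (H2B), H1f2 and H1f4 (linker histones) gave 80.2% of the resting epithelial member UMIs in the control and 80.9% in the knockout, with H2bc4 alone at 47.3% and 47.4%. In cycling epithelial cells the same 3 genes gave 35.6% and 37.4%, and in cycling T cells 15.2% and 11.2%. The other members together were 3.23-fold (3.01 to 3.47) higher in cycling than in resting epithelial cells of the control and 3.98-fold (3.80 to 4.17) higher in the knockout. In T cells their folds were 22.3 (19.9 to 25.1) and 21.6 (19.4 to 24.2). Setting these 3 genes apart was chosen after their values were seen.

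**Figure D1:**
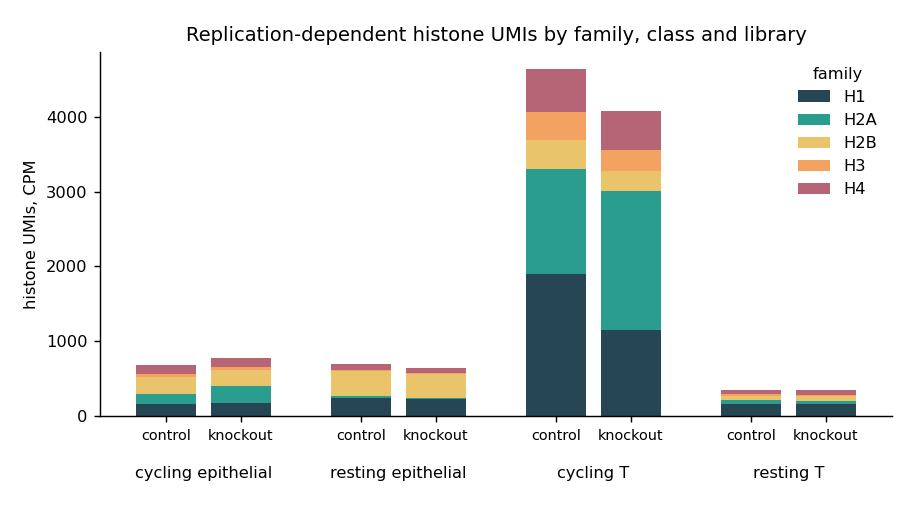
Summed CPM of the H1, H2A, H2B, H3 and H4 members (stacked bars from 0) in cycling and resting epithelial and T cells, in the control (Adipfl/fl) and the knockout (Adipfl/flpVilli-CreT), 1 library each. Cycling T cells stand at 4636 and 4078, and the H2B and H1 families fill most of the resting epithelial bars.

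The families differed in their cycling to resting folds. H2A members had the largest epithelial folds, with 25.3 CPM in resting and 138 in cycling cells of the control (5.45-fold) and 24.5 and 220 in the knockout (8.97-fold). H3 members were at 14.5 in resting and 47.7 in cycling epithelial cells of the control (3.30-fold), and at 12.3 and 44.4 in the knockout (3.62-fold). H4 members were 1.76-fold and 1.73-fold higher in cycling cells. The H1 and H2B families were lower in cycling than in resting epithelium, at 0.651 and 0.811 for H1 and 0.654 and 0.695 for H2B, the families of H1f2 and H2bc4. In T cells all 5 families were higher in cycling cells, with 32.1 and 40.9 for H2A, 17.1 and 19.4 for H3, 11.5 and 7.37 for H1, 9.50 and 8.0 for H4 and 6.81 and 4.12 for H2B.

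Single members were compared where they had at least 20 UMIs over both classes. In the control, 18 of 35 members were at least 2-fold higher in cycling than in resting epithelial cells, beside 31.5% of all 12779 genes tested, and 7 were at least 2-fold lower, beside 20.1%. With the 2 members at 0 in cycling cells set to the 3-UMI floor, 6 were lower. In the knockout 27 of 43 members were higher (all genes 33.7%) and 2 lower (all genes 17.4%). The median fold of the members was 2.23 in the control and 2.89 in the knockout, beside 1.28 and 1.35 over all genes tested. In T cells 29 of 30 members were at least 2-fold higher in cycling cells of the control (all genes 8.39%) and 27 of 30 in the knockout (all genes 8.71%), and 0 were lower (all genes 8.84% and 13.5%). Their median folds were 24.2 and 15.5, or 18.7 and 14.9 with genes at 0 in resting cells set to their bound, beside 0.954 and 0.958 over all genes. The remaining members of each comparison had fewer UMIs and were not compared singly. A member can reach 20 UMIs through cycling cells alone, as 5 in control and 2 in knockout T cells did with 0 resting UMIs. The limit thus favours members that are higher in cycling cells, and the counts partly follow from it. Member counts in the later comparisons carry the same limit.

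Among the linker histones, H1f5 was nearly absent from resting epithelium. It had 56.1 CPM in cycling epithelial cells of the control and 39.1 in the knockout, against 0.302 and 0.561 in resting epithelial cells, a fold of 186 (83.1 to 515) and 69.7 (45.0 to 113). In cycling T cells it was the highest member of the control at 1043, and it stood at 622 in the knockout, against 9.27 and 9.56 in resting T cells. The control value in cycling epithelium rested on 19 of 86 cells, and 1 cell gave 22.4% of its UMIs. H1f2 went the other way in epithelium, with 30.6 and 57.5 in cycling cells and 138 and 162 in resting cells (0.222-fold and 0.355-fold). In T cells H1f2 was 2.10-fold higher in cycling cells of the control and 1.27-fold (0.989 to 1.63) in the knockout. H1f4 had 52.8 and 61.4 in cycling and 88.4 and 51.8 in resting epithelial cells, so its fold was 0.597 (0.494 to 0.715) in the control and 1.18 (1.06 to 1.32) in the knockout. Its last 500 bases overlap H2bc6, and 99% of the 91-base stretches occur there or elsewhere. H1f3 had 10.1 and 16.5 in cycling epithelial cells against 138 and 71.1 in cycling T cells.

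Among the H2A genes, H2ac24 and H2ac8 carried most of the cycling signal. H2ac24 had 45.2 CPM in cycling epithelial cells of the control and 114 in the knockout, against 1.86 and 3.24 in resting cells (24.3-fold and 35.3-fold). In cycling T cells it stood at 532 and 1084, the highest member of the knockout. H2ac8 had 30.6 and 49.4 in cycling and 2.12 and 2.09 in resting epithelial cells, folds of 14.4 (9.75 to 21.6) and 23.6 (18.5 to 30.6), with 426 and 502 in cycling T cells. H2ac4 was at 7.12 and 5.89 in cycling and 0.151 and 0.204 in resting epithelial cells (47.1-fold and 28.9-fold), and its 0 UMIs in resting T cells made it at least 65.0-fold and at least 52.2-fold higher in cycling T cells. H2ac10 reached a fold of 218 (lower limit 36.6) in knockout epithelium on a single resting UMI. H2ac6 had 28.5 and 20.1 in cycling and 14.3 and 10.5 in resting epithelial cells, folds of 2.00 (1.51 to 2.61) and 1.92 (1.56 to 2.35), and H2ac20 stood at 10.9 and 9.33 in cycling epithelium.

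H2bc4 had the most UMIs of the H2B genes in epithelium and was lower in cycling than in resting epithelial cells. It had 161 CPM in cycling and 326 in resting epithelial cells of the control (0.494-fold, 0.444 to 0.547), and 170 and 301 in the knockout (0.565-fold, 0.530 to 0.602). In T cells it stood between 37.0 and 51.1 in all 4 groups, with cycling to resting folds of 0.954 (0.633 to 1.42) and 0.823 (0.568 to 1.18). Its annotated gene (chr13:23684199-23692908, plus strand) has 2 exons and no stem-loop in the transcript model. The other named H2B members were low, with H2bc6 at 9.63 and 7.20, H2bc21 at 6.70 and 6.55 and H2bc11 at 7.12 and 5.57 in cycling epithelial cells, and H2bc11 reached 67.6 and 58.0 in cycling T cells. H2bc21 had 4.51 CPM in cycling T cells of the control and 0 UMIs in the knockout.

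The H3 genes, whose product wraps DNA with H4, were low in epithelium. H3c3 had 10.9 and 12.4 CPM in cycling and 0.504 and 0.230 in resting epithelial cells, folds of 21.6 (10.1 to 50.2) and 54.2 (27.1 to 123), and 132 and 102 in cycling T cells. H3c6 stood at 11.3 and 7.04 in cycling epithelium, H3c4 at 6.28 and 9.33 and H3c1 at 5.02 and 5.07. Among the H4 genes, H4c4 had 55.7 and 42.6 in cycling and 21.4 and 20.3 in resting epithelial cells (2.61-fold and 2.10-fold), and 374 and 340 in cycling against 32.2 and 36.8 in resting T cells. H4c9 had 30.1 and 29.5 in cycling and 13.5 and 13.3 in resting epithelium. H4c8 stood at 15.5 and 17.8 in cycling epithelium, and H4c3 was lower in cycling than in resting epithelium in both libraries (7.96 against 13.3 and 8.02 against 11).

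**Figure D2:**
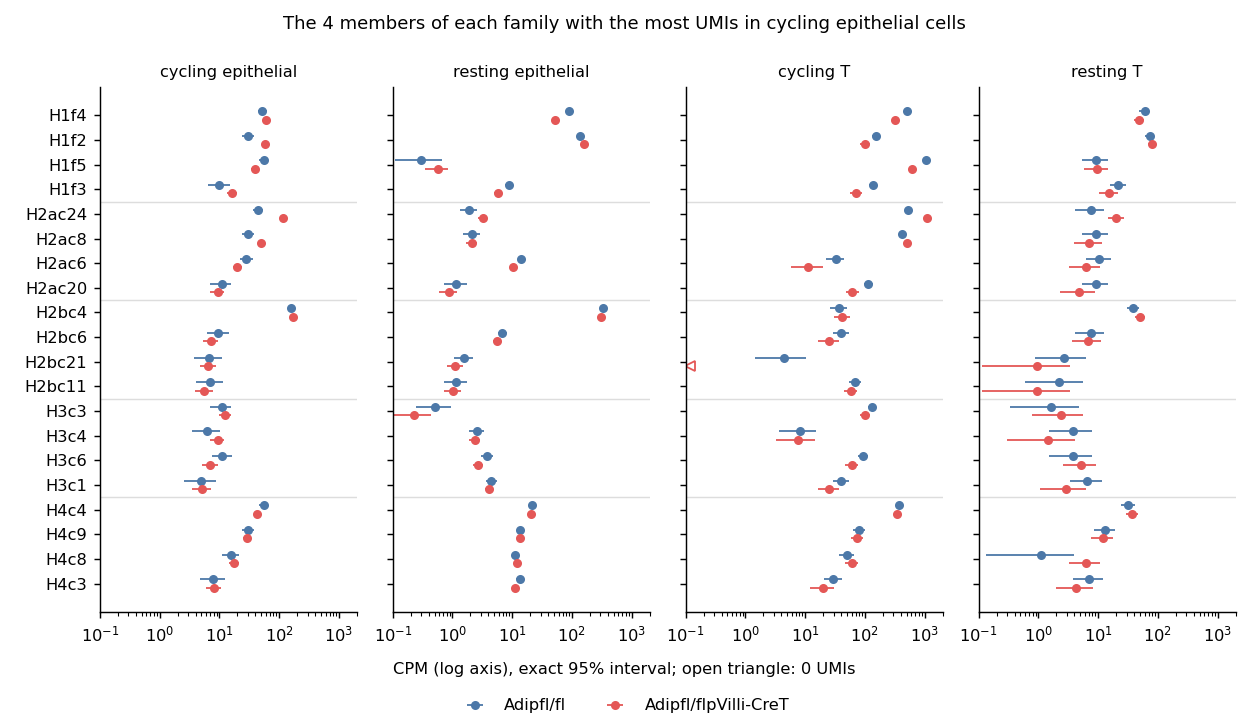
CPM (log axis) of the 4 members of each family with the most UMIs in cycling epithelial cells, in cycling epithelial, resting epithelial, cycling T and resting T cells of the control (Adipfl/fl) and the knockout (Adipfl/flpVilli-CreT), 1 point per library with its 95% counting interval and open triangles for 0 UMIs. H1f5 is at 1043 and 622 in cycling T cells and at 0.302 and 0.561 in resting epithelial cells, while H2bc4 is highest in resting epithelium.

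Cycling T cells exceeded cycling epithelial cells for most members. In the control 30 of 34 members were at least 2-fold higher in cycling T cells (all genes 17.4%) and 1, H2bc4, was at least 2-fold lower (all genes 27.5%). In the knockout 29 of 35 were higher (all genes 15.4%) and 2, H2bc4 and H2bc21, were lower (all genes 29.7%). H1f5 was 18.6-fold and 15.9-fold higher, H2ac24 11.8-fold and 9.48-fold, H2ac8 13.9-fold and 10.2-fold and H4c4 6.72-fold and 8.0-fold. The S-phase list of 39 genes without histones was also higher in cycling T cells, at 4790 against 1304 CPM in the control and 4210 against 1422 in the knockout. The G2M list of 52 genes stood at 14000 against 10140 and at 12900 against 8826. How far position in the cycle sets the gap in members was not tested.

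Members were spread unevenly over cells. A cycling T cell of the control held a median of 14.5 different members and a knockout one 7, against 5 and 6 in cycling epithelial cells and 2 in resting epithelial cells of both libraries. The median cycling T cell had 4435 CPM in the control and 883 in the knockout, although the summed totals were 4636 and 4078. The 10% of cells richest in members held 46.8% and 37.3% of the member UMIs of cycling epithelium, and 31.6% and 30.7% of those of cycling T cells. With each cell thinned to 2000 UMIs, 4 of 86 control and 33 of 284 knockout cycling epithelial cells held an H1f5 UMI (4.65% and 11.6%, or 22.1% and 27.5% unthinned). In cycling T cells the thinned shares were 57.3% and 41.6% (68.8% and 56.4% unthinned). Villus tip cells, which do not divide, gave the background for the 4 markers: 0 of 571 and 0 of 1626 thinned cells had an H1f5 UMI, with 95% upper limits of 0.644% and 0.227%. H2ac24 was found in 3 and 10 of these cells, against 5 of 86 and 56 of 284 cycling epithelial cells. For H2ac8 the counts were 1 and 1 against 6 and 39. H4c4 stood less clear of the background, with 32 and 100 villus tip against 7 and 29 cycling epithelial cells. After thinning, UMIs of any member were more frequent in villus tip cells (78.63% and 76.51%) than in cycling epithelial cells (62.79% and 73.59%). Unthinned, the order was the opposite, with 92.8% and 88.7% of villus tip and 98.8% and 98.3% of cycling epithelial cells. Median depths before thinning were 19430 and 16990 UMIs in cycling epithelial, 10570 and 9163 in cycling T and 3854 and 3554 in villus tip cells. A UMI of any member other than H2bc4, H1f2 and H1f4 was found in 39.5% and 50.4% of cycling epithelial cells and in 25.9% of villus tip cells of both libraries.

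Position in the cycle was read from the S and G2M lists, which hold no member. Cycling cells with at least 10 UMIs of both lists together (567 cells of all, 318 of them within 0.05 of a cut) were ranked by the S share of these UMIs, and cut at 0.0871 and 0.257 into S-leaning, intermediate and G2M-leaning groups of equal size. The cuts were shared by both cell types and libraries. S-leaning cells made up 18.6% and 16.2% of the epithelial but 62.5% and 66.3% of the T cells. Groups cut within each cell type were not made, so the groups may differ in cycle position between the types. In control epithelium the members stood at 969 CPM in 16 S-leaning, 798 in 30 intermediate and 517 in 40 G2M-leaning cells. In knockout epithelium they stood at 866, 943 and 591 in 46, 120 and 118 cells. S-leaning cells were thus 1.87-fold (1.63 to 2.16) and 1.47-fold (1.35 to 1.59) above G2M-leaning cells. With equal weight for every cell the folds were 1.25 in the control and 0.761 in the knockout, the opposite direction, and without the deepest 5% of cells the knockout fold was 1.10 (0.991 to 1.22). In T cells the intermediate group was highest in both libraries, with 3678, 7523 and 3675 in the control (60, 21 and 15 cells) and 2816, 6424 and 4675 in the knockout (67, 18 and 16 cells). The S-leaning to G2M-leaning fold in T cells was 1.00 in the control and 0.602 in the knockout.

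Among members with at least 20 UMIs, 5 of 9 were at least 2-fold higher in S-leaning than in G2M-leaning epithelial cells of the control (all genes 6.88%) and 1 was lower (all genes 15.1%). In knockout epithelium 8 of 20 were higher (all genes 9.65%) and 0 lower (all genes 7.68%). In cycling T cells 1 of 25 members was higher and 2 were lower in the control (all genes 12% and 6.98%), and 0 of 19 were higher and 3 lower in the knockout (all genes 10.5% and 7.04%). The epithelial folds were 5.46 and 4.40 for H1f5, 4.39 and 2.06 for H2ac24, 3.88 and 2.56 for H2ac8, 3.25 and 2.77 for H1f4 and 2.35 and 1.78 for H4c4. H2bc4 went the other way, at 0.573 (0.382 to 0.834) and 0.614 (0.498 to 0.751).

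**Figure D3:**
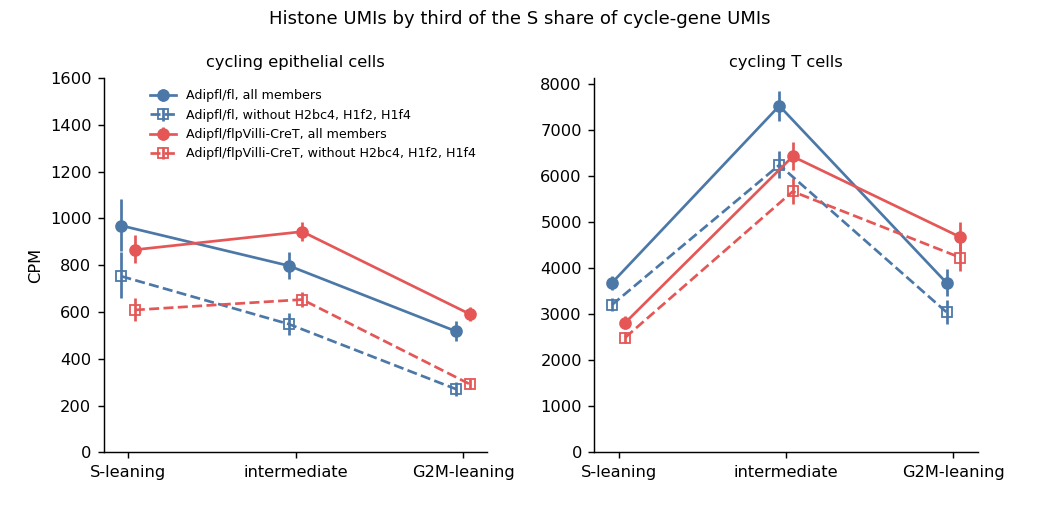
Summed CPM of all members (filled points) and of the members without H2bc4, H1f2 and H1f4 (open squares) in S-leaning, intermediate and G2M-leaning cycling cells, for epithelial cells and T cells on separate y axes, in the control (Adipfl/fl) and the knockout (Adipfl/flpVilli-CreT), with 95% counting intervals. Over all members, epithelial G2M-leaning cells sit lowest at 517 and 591, and intermediate T cells highest at 7523 and 6424.

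In resting epithelium the members grouped as extended by their annotated transcripts held nearly all UMIs. A member was counted as extended where a transcript ran at least 100 bases past its stem-loop, had at least 2 exons or carried a poly(A) signal, a grouping chosen after the values were seen, and 23 members were extended and 35 short. Not every extended member has a long 3′ end, and H4c8, with a poly(A) signal, ends 46 bases past its stem-loop. Extended members gave 95.9% and 95.6% of member UMIs in resting epithelial cells, 84.8% and 83.5% in resting T cells, 70.3% and 68.2% in cycling epithelial cells and 44.6% and 42.1% in cycling T cells. H2bc4, H1f2 and H1f4 are all extended and alone gave 80.2% and 80.9% of the resting epithelial member UMIs. Short members stood at 28.1 and 27.8 CPM in resting epithelial cells and at 2567 and 2362 in cycling T cells.

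Among the resting types, named by their markers, H2bc4 had its highest level in villus tip cells of both libraries, with 423 and 346 CPM. It followed with 387 and 341 in early enterocytes, 356 and 240 in enteroendocrine cells, 325 and 232 in tuft cells, 294 and 285 in mid villus cells and 256 and 250 in goblet cells. H1f2 had a different order, with 378 and 384 in enteroendocrine, 293 and 355 in villus tip and 285 and 268 in goblet cells, but 85.8 and 102 in mid villus and 64.4 and 70.0 in early enterocyte cells. H1f4 was lower in the knockout in each of the 6 named epithelial types, for example 76.3 and 44.4 in mid villus and 61.0 and 35.2 in early enterocyte cells. H4c4 ranged from 10.3 to 45.1 and H4c9 from 7.45 to 34.5 over the same types. Free RNA can add UMIs to any cell, and the enterocyte transcript Fabp1 reached 0.0158 of its mid villus level in resting T cells of the control and 0.0502 in the knockout. H2bc4 reached 0.132 and 0.180 there, and H1f2 0.865 and 0.786.

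**Figure D4:**
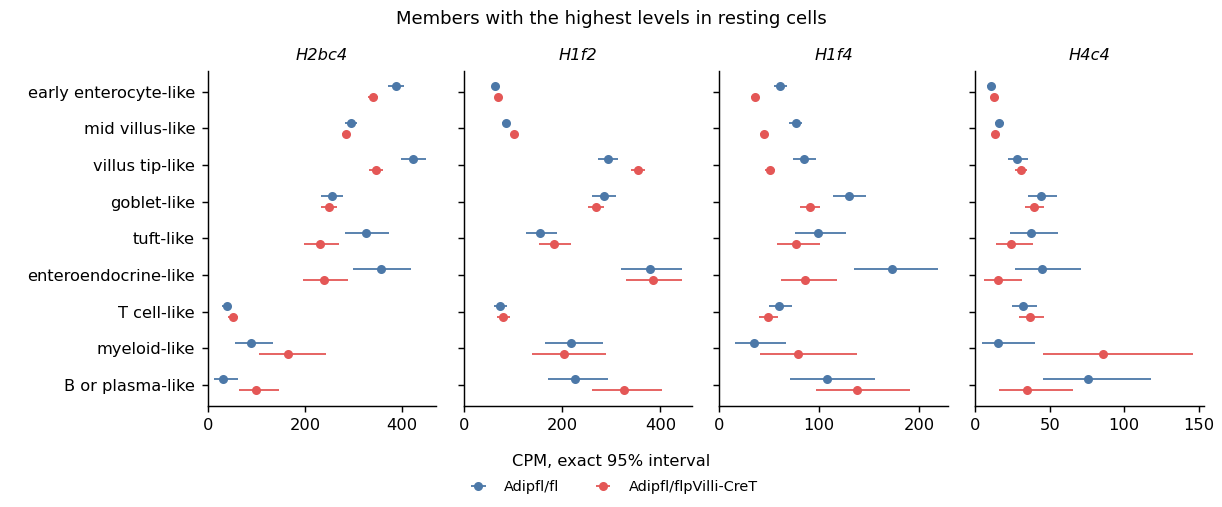
CPM of H2bc4, H1f2, H1f4 and H4c4 by resting cell type in the control (Adipfl/fl) and the knockout (Adipfl/flpVilli-CreT), with 95% counting intervals. H2bc4 is at 423 and 346 in villus tip cells and at 38.7 and 51.1 in T cells.

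Between the genotypes, the member total of cycling epithelial cells was 772 in the knockout and 686 in the control, a fold of 1.13 (1.07 to 1.19). In the same cells the S list was 1.09-fold (1.05 to 1.14) and the G2M list 0.87-fold (0.857 to 0.884). The fold of the members changed when 1 sub-cluster that held no control cells was left out. Split once more, the cycling epithelial cells gave 4 sub-clusters, and the third of them held 53 knockout and 0 control cells, with 2537 CPM of members, a median of 5021 UMIs per cell and the goblet cell list (7 genes such as Muc2 and Zg16) at 45800 CPM. Without this sub-cluster, an alternative chosen after seeing the data, the member fold was 0.966 (0.911 to 1.02), an interval that includes 1. The S list was then at 1.095-fold (1.05 to 1.14). Over all cycling epithelial cells the goblet list stood at 2078 in the control and 6896 in the knockout, all 7 genes being detected in both. Cells with over 1% goblet UMIs were 6 of 86 and 81 of 287. The 9 Paneth genes summed to 40.6 (8 detected, Defa17 at 0) and 454 (9 detected). The 13 T cell genes summed to 16.8 (8 detected) and 285 (12 detected), with Cd3e, Cd2, Trbc1 and Trdc at 0 in the control. The 5 fibroblast genes summed to 0.837 (1 detected) and 118 (5 detected), and 3 knockout cells held at least 5 fibroblast UMIs. The part of these cells in the fold, beyond the values without them, was not tested.

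Within the sub-clusters shared by both libraries the order of the genotypes varied. In the Olfm4-led stem-like sub-cluster (41 control and 116 knockout cells) members stood at 975 in the control and 707 in the knockout, with H1f5 at 116 and 38.1, H4c4 at 104 and 42.3 and H2ac24 at 81.0 and 92.5. This sub-cluster also had 6 Paneth cell and 5 fibroblast markers, and its make-up differed between the libraries. There the cycling markers summed to 2574 and 1941, the goblet list to 4561 and 6496 and the Paneth list to 85.9 and 769. How far this bears on the member levels was not tested. In the Cdc20-led sub-cluster (42 and 93 cells) members stood at 456 and 588, with H1f5 at 10.6 and 20.2, H4c4 at 18.2 and 16.9 and H2ac24 at 17.4 and 65.9. The last sub-cluster held 3 and 25 cells with 801 and 772.

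By family, H2A members were 1.59-fold (1.41 to 1.80) higher in knockout cycling epithelium, and 1.2-fold without the sub-cluster found in 1 library. H2A members other than H2ac24 were at 93.0 and 105 CPM, a fold of 1.13 (0.972 to 1.33). The folds of the other families were 1.16 for H1, 0.976 for H2B, 0.929 for H3 and 0.913 for H4. Of 33 members with at least 20 UMIs, 5 were at least 1.5-fold higher in the knockout (all genes 8.42%) and 5 at least 1.5-fold lower (all genes 4.07%). The interval excluded 1 for 5 higher (all genes 7.55%) and 5 lower members (all genes 7.79%). The median fold was 0.977, beside 0.992 over all genes.

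The 5 higher members were H2ac18, H2ac24, H1f2, H1f3 and H2ac8. H2ac24 was 2.53-fold higher (45.2 and 114 CPM, 2.06 to 3.13), H1f2 1.88-fold (30.6 and 57.5, 1.46 to 2.45), H1f3 1.65-fold (10.1 and 16.5, 1.05 to 2.69) and H2ac8 1.62-fold (30.6 and 49.4, 1.25 to 2.12). H2ac18 had 0 UMIs in the control and 38 in the knockout, at least 4.95-fold higher. All of the 91-base stretches of H2ac18 occur in other genes, most of them H2A members. The 5 members that were at least 1.5-fold lower were H2bc18 (10.1 and 4.26, 0.423-fold, 0.234 to 0.770), H2bc14 (7.54 and 3.27, 0.434-fold, 0.218 to 0.871), H2ac15 (0.575-fold, 0.298 to 1.13), H3c7 (0.604-fold, 0.267 to 1.43) and H3c6 (0.623-fold, 0.376 to 1.05), and the intervals of the last 3 include 1. H1f5 stood at 0.697-fold (0.562 to 0.868), H2ac6 at 0.707-fold (0.522 to 0.966) and H4c4 at 0.764-fold (0.618 to 0.949). Without the sub-cluster found in 1 library, 3 of 32 members were at least 1.5-fold higher (all genes 8.3%) and 9 at least 1.5-fold lower (all genes 4.03%), with H1f5 at 0.514, H4c4 at 0.565, H2ac8 at 1.14 (0.871 to 1.52), H1f2 at 1.83 and H2ac24 at 1.88. The 3 higher members were H2ac18, H2ac24 and H1f2, and H1f3 was no longer among them.

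**Figure D5:**
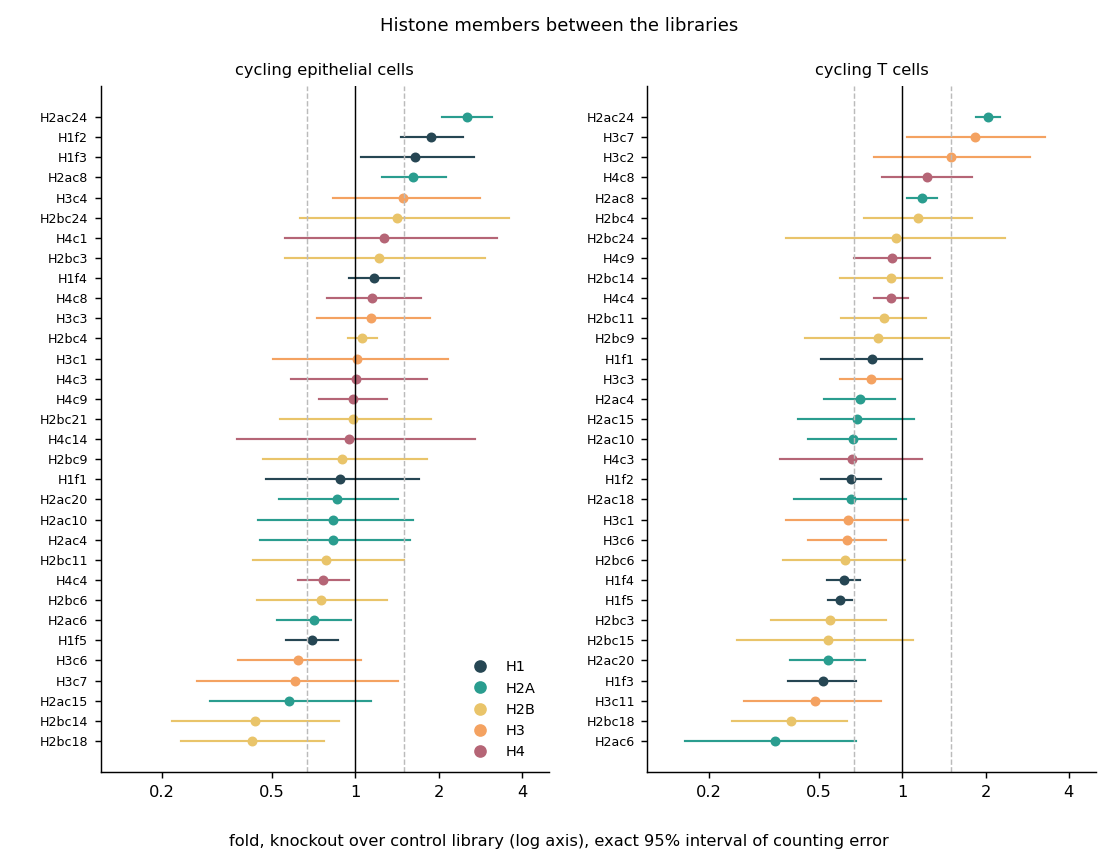
Fold of each member with at least 20 UMIs and a UMI in both libraries, knockout (Adipfl/flpVilli-CreT) over control (Adipfl/fl), on a log axis in cycling epithelial and cycling T cells, with 95% counting intervals and 1 library per genotype; dashed lines mark 1.5-fold in either direction. H2ac24 lies above 1 in both panels (2.53 and 2.04), and H2ac18 is left out of the epithelial panel because the control had 0 UMIs.

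In cycling T cells, where the deletion is not expected, the member total was lower in the knockout, at 4078 against 4636 (0.880-fold, 0.845 to 0.916). The S list without histones was lower there too, at 4210 against 4790 (0.879-fold, 0.84 to 0.91), and the G2M list was 0.92-fold. How far the members share these shifts was not tested. Of 32 members, 16 were at least 1.5-fold lower (all genes 8.85%) and 2 higher (all genes 7.34%). The interval excluded 1 for 13 lower (all genes 5.94%) and 3 higher members (all genes 5.08%). The median fold was 0.673, beside 0.979 over all genes. All 5 H1 genes were below 1, 4 of them with an interval that excludes 1, namely H1f5 at 0.596 (0.541 to 0.657), H1f4 at 0.615, H1f2 at 0.654 and H1f3 at 0.515. H2ac6 stood at 0.346-fold and H2bc18 at 0.397-fold. H2ac24 was 2.04-fold higher (1.84 to 2.25), so that the H2A family as a whole was 1.32-fold higher while H2A members other than H2ac24 were at 0.886-fold (0.806 to 0.973). H3c7 was 1.83-fold and H2ac8 1.18-fold higher. The goblet list summed to 179 in control and 8855 in knockout cycling T cells, and 1 knockout cell of 50630 UMIs had over 1% goblet UMIs. Without it, an alternative chosen after seeing the data, the fold of the member total was 0.888.

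Resting epithelial totals were 689 and 636 (0.924-fold, 0.904 to 0.943), and 3 of 37 members were at least 1.5-fold higher (all genes 3.96%) and 4 lower (all genes 9.11%). H1f4 was 0.586-fold (88.4 and 51.8, 0.550 to 0.625), H1f2 1.17-fold (1.12 to 1.23) and H2ac24 1.74-fold (1.2 to 2.58). Resting T totals were 349 and 347 (0.995-fold), with 1 of 13 members higher (all genes 11.5%) and 3 lower (all genes 7.91%). The 1 higher member was H2ac24 at 2.63-fold (7.64 and 20.1, 1.41 to 5.21). H2ac24 was thus higher in the knockout in each of the 4 classes, T cells included, and no other member with at least 20 UMIs in every class was above 1.5-fold in all of them. At most 13 members could be compared in this way, the number measured in resting T cells. The share of all genes above 1.5-fold in all 4 classes is not given here. Most of the sequence stretches of H2ac24 also occur in other genes, so its counts depend on how reads matching several genes were treated.

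Genes that work with these histones were summarised from lists. In control and knockout epithelium, 8 of 10 and 7 of 10 replication-independent histone variants, 11 of 20 and 14 of 21 genes of histone transcription and 3′ processing and 19 of 23 histone chaperones and import factors in both were at least 2-fold higher in cycling than in resting cells, beside 31.5% and 33.7% of all genes, and none was at least 2-fold lower, beside 20.1% and 17.4%. Between the genotypes, 0 of 10 variants, 0 of 21 processing genes and 0 of 23 chaperones measured in cycling epithelium were past 1.5-fold, beside 8.42% of all genes higher and 4.07% lower. Slbp, the stem-loop binding protein, stood at 84.2 and 91.5 CPM in cycling epithelial cells (1.09-fold, 0.924 to 1.28) and at 324 and 388 in cycling T cells (1.2-fold, 1.04 to 1.39). Npat, the activator of histone transcription, stood at 15.5 and 16.7 in cycling epithelium and was lower in knockout cycling T cells (37.0 and 20.6, 0.557-fold, 0.316 to 0.957). Casp8ap2, a component of the nuclear bodies at histone genes, was at 24.3 and 35.9 in cycling epithelium (1.48-fold, 1.10 to 2.01) and at 127 and 94.5 in cycling T cells (0.743-fold, 0.570 to 0.966). Lsm10 and Lsm11, of the ribonucleoprotein that cuts the transcript, stood at 15.5 and 18 and at 17.6 and 13.6 in cycling epithelium. The histone H3.3 chaperone Hira was at 14.4 and 25.3 in cycling T cells (1.75-fold, 0.910 to 3.48). In resting epithelium H1f10, a linker variant, was 0.425-fold (2.82 and 1.2, 0.282 to 0.638), Lsm10 1.5-fold (4.64 and 6.96) and E2f1, a transcription factor of S-phase genes, 2.87-fold on 3 and 17 UMIs (0.830 to 15.3). In resting T cells the linker variant H1f0 was at 13.6 and 20.6 (1.51-fold, 0.900 to 2.57), Fip1l1 of the transcription and processing list at 159 and 106 (0.666-fold, 0.557 to 0.796) and Mms22l at 12 and 7.17 (0.597-fold, 0.288 to 1.21).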

How the data were processed

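Single-cell RNA libraries of small intestinal epithelium were made with a droplet-based 3′ kit, 1 per genotype. Per the file headers and labels, the authors converted reads with bcl2fastq 5.0.1, aligned them to mm10 and counted UMIs with Cell Ranger 7.1.0, and the deposited values are raw UMI counts per gene and barcode. Reads that match several genes are by default left uncounted by this tool, which lowers members with near copies. The annotation version was not given in the sources used here. Sequences came from RefSeq and GENCODE M21 (both GRCm38).

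The cell filter required over 500 detected genes and a mitochondrial share below 25%, and the cells that passed were clustered in Seurat 5.3.0 (R 4.3.3; LogNormalize with scale factor 10000, 2000 variable genes without the members, 20 principal components, resolution 0.8, without integration). Cycling clusters had at least 6 of 12 cycling markers at least 2-fold above other cells, with at least 3 T cell markers for cycling T cells, and cycling epithelial cells were split again at resolution 0.4. Doublets were not removed, and the deepest 5% of cells were left out as an alternative. Folds needed 20 UMIs, and a fold against 0 used a floor of 3 UMIs per library. Levels, intervals and counts were computed in Python 3.11.15 with numpy 2.4.6, scipy 1.17.1 and pandas 2.3.3, and plots were drawn with matplotlib 3.10.9. The calculation of folds and intervals was tested on simulated class totals with known changes. These held no spread between cells, so the test covers counting error only. With 1 library per genotype no p-value was computed.

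The members, lists and rules were chosen with earlier results of these data known. Genes named are the 4 markers (H1f5, H4c4, H2ac24 and H2ac8), the 4 members of each family with the most UMIs in cycling epithelial cells, the 5 highest in resting cells, those with the 3 largest and 3 smallest cycling to resting folds, and the 5 largest and 5 smallest folds between genotypes there, with list genes past 1.5-fold between genotypes and Slbp, Npat, Casp8ap2, Lsm10 and Lsm11. Any further gene named was picked with its values in view. Alternatives changed the cell filters, the clustering, the naming and weight of cells, the cells and members included, the denominator, the minimum of UMIs, the grouping by cycle position and the thinning depth.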

Additional observations from a re-analysis of the deposited data

Results flagged for a closer look

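For 2 linker histones the genotypes differed in opposite directions in the epithelium and in T cells, with each interval excluding 1. Over all genes the interval excluded 1 for 7.55% higher in cycling epithelial cells and for 5.94% lower in cycling T cells. The share of genes with both is not given here. The linker histone H1f5 was lower in both cell types. H1f2 was 1.88-fold in the knockout against the control in cycling epithelial cells and 0.654-fold in cycling T cells. H1f3 was 1.65-fold in cycling epithelial cells and 0.515-fold in cycling T cells. Without the epithelial sub-cluster that held no control cells, H1f2 but not H1f3 remained at least 1.5-fold higher. The difference between the cell types was not tested, because each value compares 1 library with 1 library.

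Barcodes with over 500 genes and at least 25% mitochondrial UMIs, which no comparison used, also held members. Scaled to 1000000 UMIs of nuclear genes, they held 924.9 member UMIs in the knockout and 920.2 in the control, beside 796 and 924 in the kept cells. The difference was not tested.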

How the results depend on the processing

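No paired analysis was possible because there is 1 library per genotype and the labels give no replicate numbers. Of 185 recomputed values, 118 kept their direction and moved within their interval (counts within 1.5 times), 64 moved further and 3 reversed, and the cause was not tested. Alternatives on the sub-cluster of 1 library, single members, fibroblast transcripts and goblet-rich cycling T cells were chosen after seeing the data. Values are given in the order control, knockout where both exist.

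The knockout to control fold of the total in cycling epithelial cells reversed to 0.962 without cycling cells rich in goblet transcripts. Without the sub-cluster of 1 library it reversed to 0.966, with an interval (0.911 to 1.02) that includes 1. It was 1.03 with cells named one by one, 1.62 with equal weight for every cell, 1.19 without the cell richest in members, 1.04 without the deepest 5% of cells and 1.03 without H2ac24. In cycling T cells it was 0.972 under a mitochondrial limit of 10%, 0.833 with more than 1000 genes, 0.920 without H2bc4, H1f2 and H1f4 and 0.729 without H2ac24. In resting epithelial cells it was 0.866 under the limit of 10%, 0.958 with equal weight and 0.888 without the 3 genes.

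The cycling to resting fold in epithelium was 0.894 and 1.51 with equal weight, 0.924 and 1.14 over nuclear genes, 0.933 and 1.04 without H2ac24 and 3.23 and 3.98 without the 3 genes. It was 0.928 in the control without the cell richest in members. In the knockout it was 1.06 with cells named one by one, 1.00 without goblet-rich cells, 1.16 without the deepest cells and 1.04 without the sub-cluster. In T cells it was 16.8 and 17.5 under the limit of 10%, 12.1 and 9.22 with more than 1000 genes, 22.3 and 21.6 without the 3 genes and 12 and 9.14 without H2ac24, and in the knockout 12.7 with equal weight and 13.1 without the deepest cells. The control epithelial fold thus passed from 0.996 (0.945 to 1.05) to 3.23 without the 3 genes. That change across 1 is not among the 3 values called reversed.

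The S-leaning to G2M-leaning fold in epithelium was 1.25 with equal weight in the control and reversed to 0.761 in the knockout. It was 1.62 and 1.74 under the limit of 10%, 1.55 and 1.14 with cells named one by one, 2.29 and 1.62 without goblet-rich cells and 2.79 and 2.09 without the 3 genes, and in the knockout 1.10 without the deepest cells and 1.59 with groups cut within each library.

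Members at least 2-fold higher in cycling epithelium were 7 and 17 with at least 50 UMIs, and 35 in the control with at least 1 UMI. Between genotypes, 3 members were higher and 10 lower without goblet-rich cells, 15 and 13 with at least 1 UMI, and 3 and 9 without the sub-cluster. The lower members were 8 under the limit of 10%, 3 without the cell richest in members, 9 without the deepest cells and 2 with at least 50 UMIs. A share over all genes is given only for the setting without the sub-cluster (8.3% higher and 4.03% lower). The other counts in this paragraph have no such share beside them, so they cannot be set against all genes. Thinned to 1000 UMIs, 43.0% and 52.6% of cycling epithelial, 48.5% and 47.7% of resting epithelial and 64.4% of knockout cycling T cells held a member UMI. The control cycling epithelial values rest on 86 cells with 1638 member UMIs.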
